A study of Mus musculus with 6 samples.

Results

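Nuclei sorted from mouse liver were open at many sites deep inside very long genes. The regions described here are accessible sites whose midpoint lay inside a protein-coding gene span of 200 kb or longer and at least 10 kb from both ends of that span. Each had a peak in all 6 libraries of the series. There were 5506 of them among 51749 regions with a peak in all 6 libraries, and they lay in 786 of the 989 protein-coding genes of that length. Gene spans came from a RefSeq table of GRCm38, the build that the submitters' notes call mm10. That table holds no exons, so whether a region is exonic or intronic was not analysed here.

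Intervals inside long genes are largely introns, and they can hold enhancers, which are short DNA elements where transcription factors bind and act on promoters at a distance, along with internal promoters of shorter isoforms. Such elements are usually marked in cells that use them by open chromatin. The assay, ATAC-seq, cuts and tags open DNA with the Tn5 transposase, so a peak is a site of high cutting. NCOR1, a nuclear receptor corepressor, is recruited by unliganded nuclear receptors and other factors and brings histone deacetylase activity to the sites they bind.

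All 6 libraries came from livers of male mice with the genotype Ncor1/2 F/F, so both groups carried the floxed alleles. The 3 control libraries came from mice given AAV-eGFP, an adeno-associated virus that makes green fluorescent protein, and the 3 double knockout (dKO) libraries from mice given AAV-Cre, whose recombinase cuts out floxed DNA. Livers were taken on day 5 after the virus at zeitgeber time 10, and nuclei with HNF4a, a hepatocyte transcription factor, were sorted for Omni-ATAC. The sources used here do not give the promoter that drove Cre, nor whether each library came from its own animal. The p-values therefore measure only how these libraries differ, and that spread may be technical. Values are normalized tag counts, the authors' signal per peak scaled to library depth. Fold changes are differences of log2(value + 1), dKO minus control, from limma fitted over all 51749 regions, with SE the standard error. A region is called higher or lower where its Benjamini-Hochberg adjusted p was under 0.05.

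The libraries differed in a way the groups do not account for, since the deposited lists used 1 narrow peak width in control 1, dKO 1 and dKO 2 and wider peaks in control 2, control 3 and dKO 3. These are called the narrow-peak and wider-peak libraries. The lists held 68316 to 83371 peaks in control and 71473 to 84614 in dKO. Regions at the 10 hepatocyte marker genes (Alb, Ttr and others) summed to 540 to 1215 in control and 637 to 847 in dKO, and all 10 genes had a peak, 5 of them in all 6 libraries. Those at 7 endothelial markers summed to 287 to 410 and 234 to 386, with peaks in all 6 libraries at each of the 7. Per gene, the sums over the 6 libraries ranged from 54.0 to 122 at hepatocyte and 33.4 to 58.6 at endothelial markers, which overlap. For 7 stellate cell markers the sums were 77.2 to 92.5 and 50.4 to 89.7, with no peak at Dcn or Des, and for 7 biliary markers 255 to 273 and 219 to 265, with none at Krt19, Krt7 or Cftr. Those at 7 macrophage markers summed to 26.5 to 38.1 and 20.6 to 35.7, and Adgre1, Clec4f, Cd5l, Marco and Vsig4 had no peak, while 6 T and B cell markers summed to 4.59 to 6.95 and 4.78 to 5.59. At the endothelial, stellate and biliary markers dKO 1 and dKO 2 lay below every control library, and dKO 3 lay within the control range. In that order dKO 1 gave 234, 50.4 and 220, dKO 2 gave 252, 59.3 and 219, and dKO 3 gave 386, 89.7 and 265. At the other marker lists only dKO 2 at the macrophage markers lay below the controls. The part of other cell types in the results was not tested, and in pooled nuclei fewer nuclei of a type and less open DNA per nucleus cannot be told apart. Ncor1 itself summed to 130.0, 135.6 and 141.9 in control and 146.3, 132.3 and 163.1 in dKO, which does not check the deletion, because the sources used here do not give the floxed exons.

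Some of the regions lay on internal transcription starts, and these are the ones whose sequence the deposited coordinates and a sequence table can show. Of the 5506 regions, 75 overlapped the RefSeq start window of the long gene itself and 52 that of another gene, a window being the 250 bases before and 50 bases after an annotated start. A single region, in Shank2 near Mir3105, lay within 500 bp of a miRNA hairpin and was not called. Of the 75 regions, 7 were higher in dKO and 4 lower, and of the 52, 1 was higher and 6 lower, against 8.19% higher and 11.6% lower among all regions with a peak in all 6 libraries. These small counts were not tested against each other. Only called regions on the long gene's own start are shown, the 5 with the lowest adjusted p. Their windows are given 5′ to 3′ from RefSeq (GRCm38.p6), with the bases inside the accessible region in capitals. Windows were searched on both strands for TGANTCA (the AP-1 site), AGGTCA (the nuclear receptor core), CAAAGTCCA (HNF4A), TGTTTAC (FOXA), TTGCGCAA (CEBP) and CACGTG (an E-box), with a palindrome counted once.
Tmcc3: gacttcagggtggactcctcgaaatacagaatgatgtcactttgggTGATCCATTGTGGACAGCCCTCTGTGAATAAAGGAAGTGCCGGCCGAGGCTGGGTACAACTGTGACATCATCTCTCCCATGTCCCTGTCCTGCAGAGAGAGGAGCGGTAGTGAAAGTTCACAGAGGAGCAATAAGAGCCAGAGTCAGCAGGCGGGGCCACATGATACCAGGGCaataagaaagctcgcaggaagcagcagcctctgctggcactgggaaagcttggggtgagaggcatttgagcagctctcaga
Creb5: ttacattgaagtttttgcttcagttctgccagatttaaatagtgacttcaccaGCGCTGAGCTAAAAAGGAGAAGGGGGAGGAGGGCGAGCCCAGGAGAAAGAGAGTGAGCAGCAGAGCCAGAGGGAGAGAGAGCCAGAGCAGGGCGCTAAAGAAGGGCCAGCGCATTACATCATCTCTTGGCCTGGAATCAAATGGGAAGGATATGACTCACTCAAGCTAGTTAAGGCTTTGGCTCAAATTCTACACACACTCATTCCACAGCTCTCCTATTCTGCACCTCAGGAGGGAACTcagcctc
Sgms1: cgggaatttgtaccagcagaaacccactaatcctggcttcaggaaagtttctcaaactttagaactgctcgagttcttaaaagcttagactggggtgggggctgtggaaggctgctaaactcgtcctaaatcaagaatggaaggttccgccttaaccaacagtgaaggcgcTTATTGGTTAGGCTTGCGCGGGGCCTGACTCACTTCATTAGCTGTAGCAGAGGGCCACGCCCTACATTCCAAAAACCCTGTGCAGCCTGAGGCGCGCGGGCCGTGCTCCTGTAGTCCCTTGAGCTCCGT
Upp2: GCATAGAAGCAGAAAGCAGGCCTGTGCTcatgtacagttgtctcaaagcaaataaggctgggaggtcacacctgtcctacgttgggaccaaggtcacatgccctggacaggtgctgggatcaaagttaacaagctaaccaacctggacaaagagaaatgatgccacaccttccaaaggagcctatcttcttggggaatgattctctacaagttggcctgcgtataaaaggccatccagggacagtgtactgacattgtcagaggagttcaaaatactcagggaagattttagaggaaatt
Mgmt: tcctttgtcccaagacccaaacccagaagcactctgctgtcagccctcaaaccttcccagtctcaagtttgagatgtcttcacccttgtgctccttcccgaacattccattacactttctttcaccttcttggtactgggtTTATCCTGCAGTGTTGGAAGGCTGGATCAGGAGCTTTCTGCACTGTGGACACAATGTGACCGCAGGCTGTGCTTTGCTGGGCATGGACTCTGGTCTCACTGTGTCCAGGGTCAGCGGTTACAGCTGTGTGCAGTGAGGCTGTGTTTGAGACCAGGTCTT

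The Tmcc3 window (chr10:94576013-94576312, plus strand) belongs to a gene for an endoplasmic reticulum membrane protein. Its region gave 15.4, 16.9 and 13.2 in control and 31.2, 23.9 and 30.2 in dKO (log2 fold change 0.92, SE 0.14, adjusted p = 0.00158). All 3 dKO values lay above all control values, and none of the 6 motifs was in the window. Creb5 encodes a leucine zipper transcription factor of the CREB and ATF family, and its window (chr6:53573124-53573423, plus strand) held 1 AP-1 match inside the accessible bases. That region gave 15.5, 14.8 and 14.1 in control and 27.5, 20.4 and 24.8 in dKO (log2 fold change 0.73, SE 0.14, adjusted p = 0.00406). The groups did not overlap there either. Sgms1 makes sphingomyelin, and its window (chr19:32210964-32211263, minus strand) also held 1 AP-1 match in the accessible bases. Values there were 12.1, 9 and 5.1 in control and 16, 15.5 and 17.3 in dKO (log2 fold change 0.96, SE 0.23, adjusted p = 0.0124), again without overlap.

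Upp2, a uridine phosphorylase, had the strongest of the 5 start regions. It gave 58.5, 62.5 and 66.5 in control and 29.6, 29.5 and 45.9 in dKO (log2 fold change -0.79, SE 0.13, adjusted p = 0.00207). The window (chr2:58754934-58755233, plus strand) shared only its first 28 bp with that region, and its 2 AGGTCA matches lay outside the shared bases. Mgmt repairs alkylated guanine, and its window (chr7:136912848-136913147, plus strand) held none of the motifs. Its region gave 43.5, 36.3 and 40.8 in control and 21.3, 23.3 and 30.9 in dKO (log2 fold change -0.61, SE 0.13, adjusted p = 0.0073). In both genes every dKO value was below every control value, with dKO 3 the nearest to control. Over all 32619 mouse start windows, 7.85% held the AP-1 letters and 16.2% the nuclear receptor core, so a match in a single window is a description and not a site. The median signal of regions on their own gene's start was 23.2, against 21.4 on another gene's start and 12.6 for the 5379 regions on neither.

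Across all members, accessibility moved in both directions in similar numbers. Of the 5506 regions, 627 (11.4%) were higher in dKO and 609 (11.1%) lower, while 4270 did not pass the test. The background over all 51749 regions was 8.19% higher and 11.6% lower. Lower regions thus made up 49.3% of the calls in long genes and 58.6% over all regions, but 47.3% and 50.6% under quantile normalization, a smaller contrast. On the log2 scale the median change of the members was 0.01, beside -0.02 over all regions. Among called members the median was 0.68 for higher and -0.60 for lower regions, and 93 rose and 56 fell by more than 1 on the log2 scale. In 897 members all dKO values were above all control values and in 875 all were below, against 12.6% and 15.8% of all regions, and 3 libraries against 3 cannot give an exact permutation p below 0.1.

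Regions deep inside shorter genes had shares near those of long genes. The 9876 regions at least 10 kb inside genes under 200 kb were called higher in 12.2% and lower in 9.91%, whereas the 22234 regions outside any protein-coding span were called higher in 7.39% and lower in 13.7%. These differences between kinds of region were not tested, so a gene length of 200 kb is not shown to matter. Just inside the length limit, in spans of 200 to 220 kb, 67 of 462 regions were higher and 33 lower. Just outside it, in spans of 180 to 200 kb, 56 of 547 were higher and 42 lower. Of the 79 regions 10 to 12 kb from a gene end, 6 were higher and 10 lower, and of the 79 at 8 to 10 kb, 6 and 13.

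The calls depended on which libraries were compared. Within each peak width 1 group has a single library, so no calls are given there. Within the narrow-peak libraries (control 1 against dKO 1 and dKO 2) the median log2 fold change was 0.04 in members and -0.03 over all regions. Within the wider-peak libraries (control 2 and control 3 against dKO 3) these medians were -0.02 and 0.01. A comparison with 1 library in a group says nothing about the stability of the calls. Fold changes in these 2 width classes had the same sign in 74.5% of members and in 72.5% of all regions. Without dKO 1 the counts of members fell to 250 higher and 217 lower, and without dKO 2 to 199 and 151. Over all regions they fell to 1633 and 2061, and to 1257 and 1402. Without centring of the libraries the counts were 398 higher and 531 lower, a lower share of 57.2%. Over all regions they were then 2562 and 4655, a lower share of 64.5%.

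Members were weaker than other regions in each library. Their median value was 12.2, 12.8 and 12.8 in control and 12.9, 11 and 13.7 in dKO, against 16.7, 16.7 and 16.8 and 16.0, 13.9 and 17.9 for all other regions. They held 7.94%, 8.25% and 8.22% of the summed signal in control and 8.67%, 8.50% and 8.10% in dKO, so the groups overlapped. Median merged width was 209 bp for members and 210 bp for the others. Called-higher members had median values of 8.36, 9.14 and 8.30 in control and 17.1, 13.8 and 14.2 in dKO. Called-lower members had 24.3, 24.2 and 24.9 in control and 13.2, 11.8 and 18.5 in dKO. The calls chose these medians, which describe the size of the change and its spread over libraries, with dKO 3 nearest to control in the lower set.

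The direction of the calls went with signal. Members with a mean under 8 were called higher in 8.76% and lower in 2.00%, and those of 8 to 12 in 16.0% and 8.32%. At 20 to 40 the shares were 8.41% and 18.9%, and at 40 or more 1.82% and 24.1% of 220 regions. In the other regions higher calls were also fewest at 40 or more (0.991%). Their lower calls levelled off, with 17.9% at 20 to 40 and 17.7% at 40 or more. At 8 to 12 the other regions were called higher in 11.9% and lower in 7.35%. Of the members only 4% had a mean of 40 or more, against 12% of the others, and the part of signal level in the split of calls was not tested further.

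**Figure D1:**
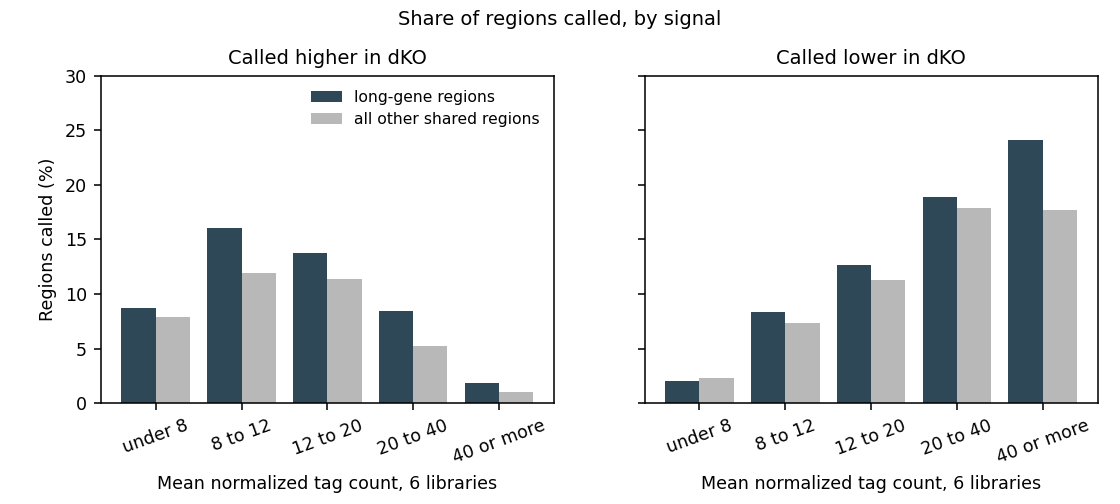
Percent of regions called higher (left panel) and lower (right panel) in dKO, by the mean normalized tag count over 6 libraries, for long-gene regions (dark bars) and all other regions with a peak in all 6 libraries (grey bars). Higher calls peaked at 16.0% of members with a mean of 8 to 12 and lower calls reached 24.1% at 40 or more.

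Few sites had peaks in all 3 libraries of 1 group and in none of the other. Before the requirement of a peak in all 6 libraries, 12737 regions lay deep inside long genes, and 43.2% of them were in all 6 libraries, against 47.1% of all 109853 regions. Peaks in all 3 dKO libraries and no control library were found at 259 (2.03%), and the reverse at 208 (1.63%). Over all regions these shares were 1.57% and 1.34%. A peak in a single library, and so in 1 group only, was found at 2334 sites (18.3%), against 16.6% of all regions.

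Long genes differed widely in how many regions they held. The median was 5 regions per gene with any, 149 genes held 1, and 39 genes with 20 or more held 1005 regions together. Length said little about number, with a Spearman correlation of 0.101 across the 989 genes as a description. Mical3, an actin-oxidising enzyme, was the densest with 22 regions in a span of 242 kb (9.90 per 100 kb, leaving out the 10 kb at each end), and Gse1 had 30 in 353 kb. Dmd, the dystrophin gene and at 2390 kb the longest with any, held 5, and Cntnap2, a neuronal adhesion gene of 2241 kb, held 4. Members lay a median of 91.3 kb from the nearer gene end, and up to 1007 kb.

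**Figure D2:**
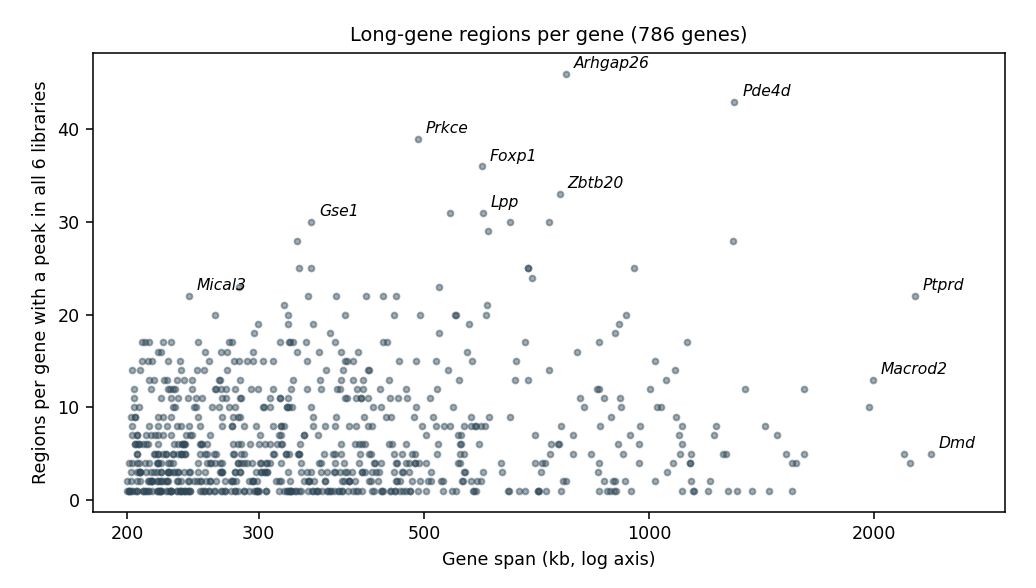
Number of long-gene regions per gene (vertical axis) against gene span in kb (log axis), 1 point per gene with at least 1 region (786 genes). Arhgap26 holds 46 regions and Pde4d 43, while Dmd, at 2390 kb the longest of them, holds 5.

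Few genes were called in most of their regions. Of the 786 genes, 146 had only higher calls, 191 only lower calls, 143 both and 306 none. Of the 420 genes with 5 or more regions, 138 had both directions, 56 had no call, 12 had at least 50% of their regions higher and 10 had at least 50% lower. The SD of fold changes within a gene was 0.386, against 0.421 over all members, on the log2 scale. Neighbouring regions did share direction when close. Where both of 2 neighbouring members were called, 51 of 54 pairs under 2 kb apart went the same way (94.4%), 87 of 101 at 2 to 10 kb (86.1%), 86 of 111 at 10 to 50 kb (77.5%) and 22 of 36 farther apart (61.1%). Pairs of other neighbouring regions gave 95.4%, 86.2%, 81.2% and 70.4%.

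Calls are also given by position, as a description. In the 601 genes of known strand, members in the first 20% of the span were called higher in 13.1% and lower in 10.7%, and those in the last 20% in 12.3% and 11%. Members more than 200 kb from both ends were called higher in 9.50% and lower in 13.9% of 779, and members 25 to 50 kb from an end in 13.2% and 9.77% of 798. In genes over 1000 kb, 41 (11%) of 373 members were higher and 49 (13.1%) lower. For comparison, the shares were 11.4% and 11.1% over all members, and 8.19% and 11.6% over all regions. These differences were not tested.

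Higher calls of smallest p fell in genes of diverse function. Msi2, which encodes an RNA-binding regulator of translation in stem cells, held the largest change of all members (chr11:88639766-88639968, 78.4 kb inside the gene's 5′ end). Values were 5.16, 7.08 and 5.44 in control and 41.8, 35 and 30.6 in dKO, means of 5.89 ± 1.04 and 35.8 ± 5.64 (SD, n = 3 each). The lowest dKO value was far above the highest control value (log2 fold change 2.48, SE 0.18, adjusted p = 9.66e-05). Msi2 held 9 higher and 0 lower of 17 regions, and 4 of the 9 lay with starts from 88639766 to 88661552 on chromosome 11. Those next to the top region had log2 fold changes of 1.44, 1.66 and 1.78. The summed signal over the 17 regions was 198, 233 and 219 in control and 376, 300 and 335 in dKO.

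Zfhx3, a homeobox and zinc finger transcription factor that also acts in the circadian clock, held the region of next smallest p (chr8:108743290-108743496). It gave 7.93, 9.52 and 7.63 in control and 41.2, 30.9 and 25.8 in dKO (log2 fold change 1.89, SE 0.19, adjusted p = 0.000438). The groups were far apart, and 8 of the gene's 17 regions were higher with none lower. The Zfhx3 count was 5 without control 1, 2 without control 3, 3 without dKO 1, 2 without dKO 2 and 3 without centring. Grk5, a kinase that turns off G protein-coupled receptors, gave 3.73, 4.02 and 3.98 in control and 15.2, 10.4 and 12.6 in dKO (chr19:60940148-60940346, log2 fold change 1.53, SE 0.16, adjusted p = 0.000478). Dlg2, a synaptic scaffold gene of 1973 kb, gave 5.38, 5.36 and 6.11 in control and 35.7, 22.6 and 17.7 in dKO (chr7:92258765-92258973, log2 fold change 2.00, SE 0.23, adjusted p = 0.000644). Control values were low and close together in both, and all dKO values lay above them. The lowest peak values in the control lists were 2.98, 2.78 and 3.20, and a member needs a peak in each library. The Grk5 control values were near that floor, which limits their spread.

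Rarb encodes retinoic acid receptor beta, a nuclear receptor that binds corepressors when it has no ligand. Its region (chr14:16484106-16484284) gave 11.9, 11.6 and 10.5 in control and 33.0, 25.5 and 26.7 in dKO (log2 fold change 1.31, SE 0.15, adjusted p = 0.000644). In that gene 5 of 9 regions were higher and 1 lower, and 2 were higher without control 3, dKO 1 or dKO 2. Ldlrad4, an inhibitor of TGF-beta signalling, gave 12.4, 16.8 and 13.4 in control and 39.0, 29.1 and 33.6 in dKO (chr18:68117848-68118062, log2 fold change 1.26, SE 0.15, adjusted p = 0.000657). Of its 19 regions, 8 were higher and none lower, a count of 4 without dKO 1 or dKO 2.

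**Figure D3:**
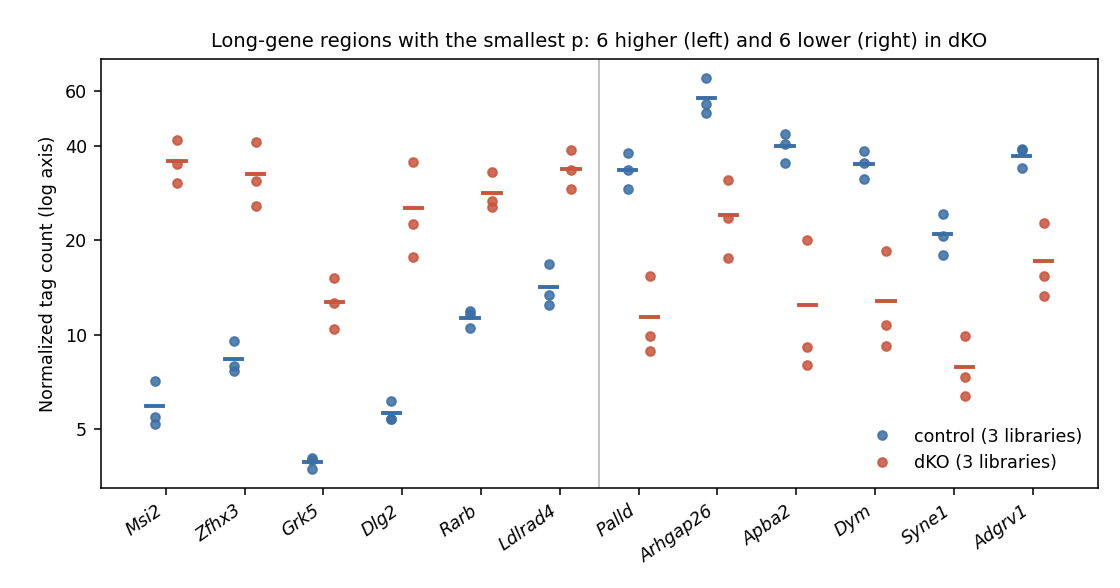
Normalized tag count (log axis) in each of the 3 control and 3 dKO libraries at the 6 higher and 6 lower regions of smallest p, with points for libraries and bars for means. The groups do not overlap at any of the 12, and dKO 3 of the lower regions is the dKO library nearest to control.

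The 6 lower regions of smallest p were in Palld, Arhgap26, Apba2, Dym, Syne1 and Adgrv1. Palld encodes palladin, an actin-associated protein, and its region (chr8:61545123-61545349) gave 37.9, 33.5 and 29.2 in control and 8.86, 9.88 and 15.4 in dKO (log2 fold change -1.45, SE 0.17, adjusted p = 0.000644). Syne1 encodes nesprin-1, which links the nucleus to actin, and gave 24.2, 17.9 and 20.6 in control and 7.34, 6.38 and 9.90 in dKO (chr10:5270721-5270963, log2 fold change -1.25, SE 0.16, adjusted p = 0.000839). Adgrv1, an adhesion G protein-coupled receptor, gave 34.1, 39.1 and 38.8 in control and 15.4, 13.3 and 22.7 in dKO (chr13:81325690-81325945, log2 fold change -1.05, SE 0.14, adjusted p = 0.000839). Each dropped in all 3 dKO libraries and least in dKO 3.

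Apba2, an adaptor that binds the amyloid precursor protein, gave 35.3, 40.6 and 43.9 in control and 9.09, 8 and 20.1 in dKO (chr7:64513610-64513948, log2 fold change -1.65, SE 0.21, adjusted p = 0.000727). Dym, a Golgi-associated gene, gave 38.6, 31.5 and 35.4 in control and 9.21, 10.7 and 18.5 in dKO (chr18:75118255-75118470, log2 fold change -1.38, SE 0.18, adjusted p = 0.000752). Arhgap26 gave 65.9, 54.5 and 51.0 in control and 23.6, 17.6 and 31.2 in dKO (chr18:39363998-39364239, 12.2 kb from the gene end, log2 fold change -1.18, SE 0.14, adjusted p = 0.000657). The Arhgap26 region was the strongest of the 12 in control.

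Genes with many regions showed different mixtures. Arhgap26 held the most, 46, of which 4 were higher and 9 lower, and 1 was lower without dKO 1 or without dKO 2. Its higher calls were 2 without control 2 or dKO 2 and 1 without dKO 1. Pde4d, a cyclic AMP phosphodiesterase, held 43, of which 16 were higher and 1 lower. The Pde4d regions summed to 684, 767 and 669 in control and 871, 756 and 839 in dKO, so the sums overlapped. Its largest change was at chr13:109708378-109708665, with 3.62, 4.21 and 3.81 in control and 16.4, 17.7 and 9.54 in dKO (log2 fold change 1.69, SE 0.24, adjusted p = 0.00125). The control values there were near the lowest of any peak in those lists (2.98, 2.78 and 3.20). The Pde4d region with the smallest p, at chr13:109915016-109915201, gave 8.57, 9.48 and 7.12 in control and 25.2, 21.7 and 21.4 in dKO (log2 fold change 1.41, SE 0.17, adjusted p = 0.000657). Without dKO 1, 9 Pde4d regions were higher and none lower, and without dKO 2, 8 and none.

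Prkce, a protein kinase C, held 39 regions with 4 higher and 3 lower. These counts were 3 and 1 without control 1, 2 and 1 without control 3, 1 and 1 without dKO 1, 0 and 0 without dKO 2, and 7 and 2 without dKO 3. Foxp1, a forkhead repressor, held 36 with 6 higher and none lower, and its higher count was 3 without control 1, 2 without dKO 1, 1 without dKO 2 and 11 without dKO 3. Without centring Foxp1 had 2 higher and 2 lower, so its direction depends on the scaling. Zbtb20, a zinc finger repressor of liver genes, held 33 with 1 higher and 5 lower, and the lower count was 3 without control 1 and 1 without control 3, dKO 1 or dKO 2. Lpp, an adhesion-plaque protein, held 31 with 1 higher and 4 lower, and the lower count was 2 without control 1 or control 2, 1 without control 3 and 0 without dKO 1 or dKO 2. The Lpp region with the smallest p was the higher one. That region gave 4.31, 3.35 and 6.22 in control and 11.8, 8.94 and 9.30 in dKO (log2 fold change 1.05, SE 0.19, adjusted p = 0.00373). When regions needed a peak in only 3 libraries, with missing values set to the lowest of the library, the leading regions of Lpp, Foxp1 and Prkce were not called (adjusted p = 0.0798, 0.121 and 0.0794).

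A few genes were called mostly one way. Ppargc1a encodes PGC-1alpha, a coactivator of gluconeogenesis and mitochondrial genes, and 8 of its 13 regions were lower and none higher. Their sums were 317, 306 and 291 in control and 198, 187 and 246 in dKO, without overlap. The region with the smallest p, 247.5 kb inside the gene (chr5:51868257-51868468), gave 45.1, 43.1 and 43.6 in control and 25.2, 23.7 and 33.1 in dKO (log2 fold change -0.62, SE 0.11, adjusted p = 0.00343). The Ppargc1a count was 5 without control 1 and 4 without dKO 1 or dKO 2. Lama3, a laminin chain of basement membranes, had 5 of 8 lower and none higher, and its sums were 186, 171 and 185 in control and 80.5, 70.7 and 129 in dKO, with 3 lower without dKO 1 or dKO 2. The largest Lama3 change was at chr18:12550382-12550588, with 56.8, 40.1 and 60.7 in control and 8.8, 8.62 and 27.6 in dKO (log2 fold change -1.86, SE 0.28, adjusted p = 0.00155). Gfra1, a GDNF co-receptor, had 4 of 6 lower, 2 without dKO 1 and none without dKO 2. With a peak required in only 3 libraries, the leading regions of Lama3 and Gfra1 were not called (adjusted p = 0.0529 and 0.0738).

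Among genes with 5 or more regions, the 3 with the highest share of higher calls were Grk5 (5 of 7), Rptor (5 of 8) and Abcc4 (3 of 5). Grk5 regions summed to 36.0, 38.1 and 41.4 in control and 75.8, 56.5 and 69.8 in dKO, and without dKO 1 or dKO 2 the count was 3. Rptor encodes raptor, the substrate adaptor of the mTORC1 growth kinase. Its region with the smallest p gave 5.27, 5.12 and 4.88 in control and 9.44, 8.05 and 9.17 in dKO (chr11:119642233-119642457, log2 fold change 0.76, SE 0.15, adjusted p = 0.00473). The Rptor count was 3 without control 1 or control 3 and 1 without dKO 1 or dKO 2. Abcc4, an efflux transporter of the basolateral hepatocyte membrane, gave 7.61, 8.14 and 9.31 in control and 18.9, 17.9 and 15.2 in dKO at its leading region (log2 fold change 1.03, SE 0.18, adjusted p = 0.00258). Sums over the 5 Abcc4 regions were 178, 169 and 151 in control and 201, 180 and 200 in dKO, and 1 was higher without dKO 2. The leading regions of Rptor and Abcc4 were not called with a peak required in only 3 libraries (adjusted p = 0.0832 and 0.0556).

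**Figure D4:**
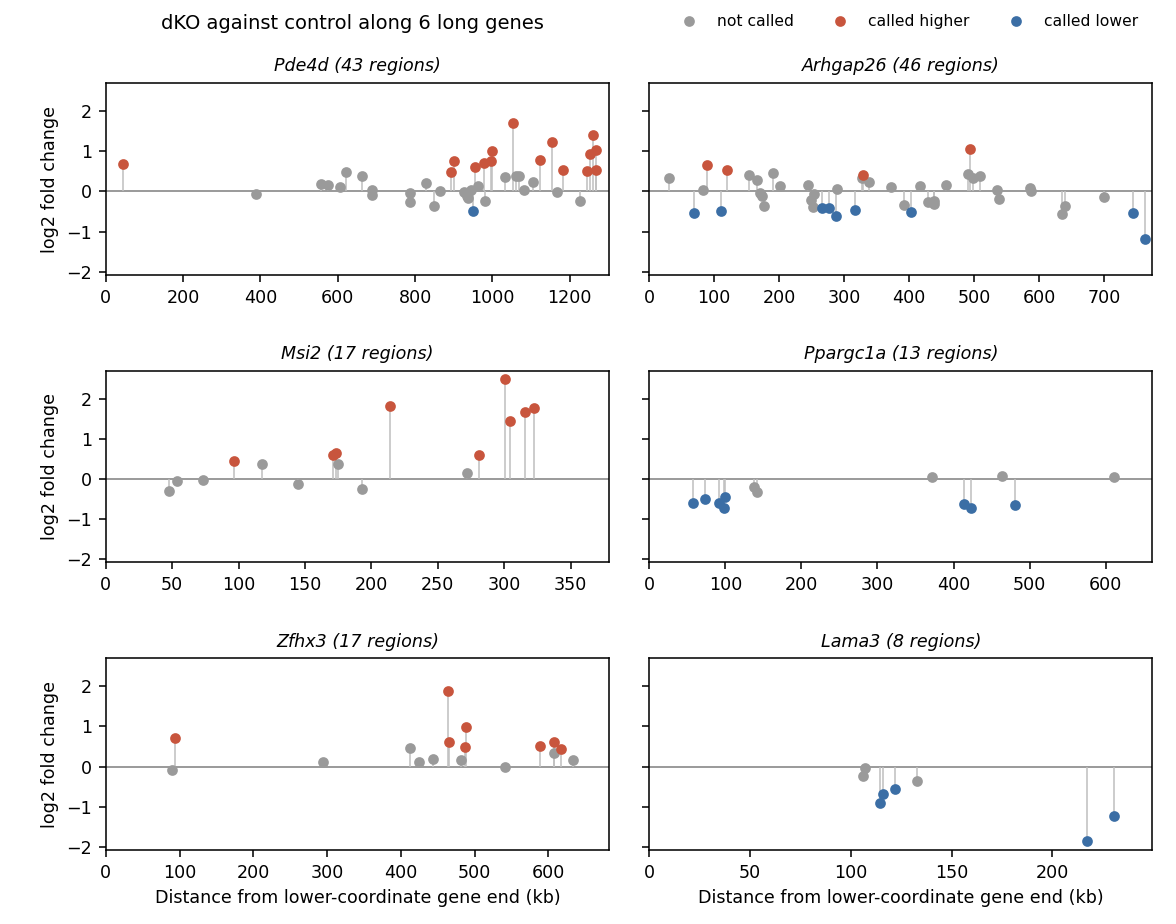
Log2 fold change (dKO minus control) of each region against its distance in kb from the lower-coordinate end of the gene, for 6 genes, with called regions in colour and regions not called in grey. In Pde4d 16 regions are called higher and 1 lower, in Ppargc1a 8 lower and none higher, and in Arhgap26 calls go both ways.

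Genes were also grouped by function, each gene in 1 group, from symbol lists chosen with earlier results of these data known. Over all regions 8.19% were higher and 11.6% lower, and over all members 11.4% and 11.1%. The share of higher calls was 16.8% of 125 regions in RNA-binding protein genes, with 7.20% lower. It was 13.8% of 341 in phosphodiesterases, cyclases and protein kinases, with 7.33% lower, and 13.2% of 265 in vesicle traffic, autophagy and ubiquitin genes, with 8.30% lower. Transcription factors, nuclear receptors and their cofactors had 83 higher (12.3%) and 64 lower (9.50%) of 674, and small GTPase regulators 57 higher and 48 lower of 496. Cell adhesion, junction and receptor-type phosphatase genes had 54 higher (9.64%) and 83 lower (14.8%) of 560. Ion channel and transporter genes had 25 higher and 38 lower of 286, and metabolic enzymes and glycan synthesis genes 28 and 42 of 329. Genes in none of the function groups had 219 higher (11.7%) and 217 lower (11.6%) of 1876. Chromatin genes (10 and 9 of 98), cytoskeleton genes (48 and 52 of 456) and genes at common fragile sites (42 and 44 of 382) had similar numbers both ways. Group medians of the log2 fold change lay between -0.04 and 0.08, beside -0.02 over all regions. Without centring, transcription factors had 53 higher and 55 lower, vesicle traffic genes 19 and 23, and chromatin genes 4 and 9. Which count was larger in those groups thus depends on the scaling. Cytoskeleton and fragile site genes, with more lower calls in both fits, had 32 and 43, and 24 and 39. All regions also shifted without centring, to 2562 higher and 4655 lower, with lower calls 64.5% of the calls against 58.6%. Leaving out dKO 2 lowered both counts of every group by more than 1.5 times. Over all regions the counts fell as well, from 4240 higher and 5995 lower to 1257 (2.43%) and 1402 (2.71%). The fall was therefore not particular to these groups. RNA-binding protein genes then had 7 higher and 4 lower, phosphodiesterases, cyclases and protein kinases 19 and 3, and vesicle traffic genes 10 and 6. Transcription factors had 26 and 16, GTPase regulators 21 and 6, cell adhesion genes 15 and 21, and ion channel genes 4 and 14. Metabolic genes had 11 and 11, without a direction, and chromatin, cytoskeleton and fragile site genes 1 and 1, 14 and 19, and 16 and 9.

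**Figure D5:**
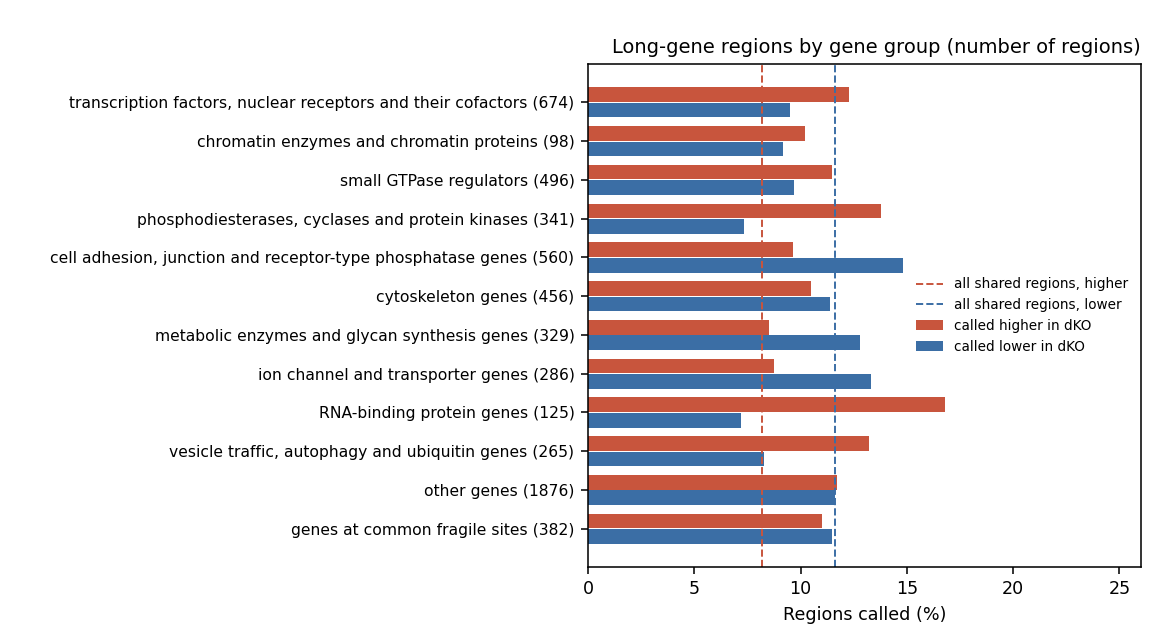
Percent of long-gene regions called higher (red) and lower (blue) in dKO for each gene group, with the number of regions in parentheses and dashed lines at the shares over all regions (8.19% and 11.6%). RNA-binding protein genes have 16.8% higher, and cell adhesion genes 14.8% lower. Over all long-gene regions the shares are 11.4% and 11.1%.

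Within transcription factor genes, Rora, a nuclear receptor that activates clock and lipid genes, shows how a single gene can hold both directions. It had 6 higher and 3 lower of 30 regions, and its largest fall was at chr9:69184016-69184212, from 28.8, 24.5 and 26.9 in control to 8.16, 5.75 and 15.9 in dKO (log2 fold change -1.39, SE 0.21, adjusted p = 0.00166). The Rora counts were 2 and 3 without control 1, 3 and 2 without control 3, 0 and 1 without dKO 1, and 1 and 1 without dKO 2. Among other nuclear receptor genes, Rarb had 5 higher and 1 lower of 9, a larger called share than in Rora. Thrb had 3 higher and 1 lower of 22, Nr3c2 3 and 2 of 17, and Esrrg 0 and 1 of 21. Among chromatin genes, Arid1b, a subunit of the BAF remodelling complex, had a region at chr17:5150796-5151020 that rose from 8.25, 10.8 and 7.12 to 30.2, 19.9 and 17 (log2 fold change 1.30, SE 0.22, adjusted p = 0.00249). The fall in Chd9, a chromatin remodeller, from 8.30, 11.3 and 22.9 to 4.49, 3.82 and 9.66 had overlapping groups (log2 fold change -1.03, SE 0.30, adjusted p = 0.0265) and was not called without control 3, dKO 1 or dKO 2. Neither the Arid1b nor the Chd9 region was called with a peak required in only 3 libraries (adjusted p = 0.0544 and 0.161).

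In signalling genes, Trio, a guanine nucleotide exchange factor, led the higher GTPase regulators. It gave 12.3, 13.5 and 10.4 in control and 37.0, 29.8 and 26.2 in dKO (chr15:27967131-27967329, log2 fold change 1.35, SE 0.17, adjusted p = 0.000752). Pde10a, a phosphodiesterase of both cyclic nucleotides, held the largest lower region of its group, with 29.4, 15.1 and 24.1 in control and 4.26, 6.69 and 11.2 in dKO (log2 fold change -1.49, SE 0.27, adjusted p = 0.00315, but 0.0584 with a peak required in only 3 libraries). Itpr1, the inositol trisphosphate receptor that releases calcium, fell from 28.3, 25.2 and 24.9 to 6.64, 9.25 and 12.9 at one of its 28 regions (chr6:108486749-108486968, log2 fold change -1.34, SE 0.18, adjusted p = 0.00105). The gene as a whole had 5 higher and 8 lower, but 2 and 5 without control 1, 2 and 7 without control 3, and 0 and 4 without dKO 1 or dKO 2. Slc4a4, a sodium bicarbonate cotransporter, rose from 8.25, 10.3 and 8.24 to 25.8, 20.4 and 19.4 (chr5:89024437-89024684, log2 fold change 1.26, SE 0.17, adjusted p = 0.00105).

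Of the cytoskeleton genes, Utrn, the dystrophin relative utrophin, held the largest rise, from 7.50, 5.46 and 6.06 to 33.9, 20.4 and 15.6 (chr10:12788044-12788263, log2 fold change 1.73, SE 0.25, adjusted p = 0.00132). Fmn1, a formin that nucleates actin, fell from 26.1, 20.9 and 29.3 to 6.94, 4.65 and 12 (chr2:113503569-113503775, log2 fold change -1.59, SE 0.21, adjusted p = 0.000841). Magi2, a junction scaffold at a common fragile site, fell from 29.1, 16.0 and 29.0 to 6.06, 8.47 and 9.30 (chr5:20321043-20321303, log2 fold change -1.43, SE 0.22, adjusted p = 0.00191). None of the 3 had overlapping groups, and in Magi2 control 2 was the lowest control.

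Among the remaining group leaders, Vps13d, a lipid transfer protein, rose from 9.21, 8.90 and 9.53 to 29.6, 21.8 and 19.1 (log2 fold change 1.30, SE 0.18, adjusted p = 0.00121). Stxbp6, a SNARE-binding protein, fell from 13.8, 12.5 and 11.8 to 4.6, 4.39 and 6.20 (log2 fold change -1.12, SE 0.16, adjusted p = 0.00107). Acoxl, named for its likeness to peroxisomal acyl-CoA oxidases, rose from 8.57, 5.84 and 4.32 to 23.7, 16.7 and 11.5 (log2 fold change 1.39, SE 0.27, adjusted p = 0.00479). Adarb2, a brain relative of RNA-editing enzymes, fell from 29.4, 28.0 and 33.0 to 8.98, 5.54 and 20.5 (log2 fold change -1.41, SE 0.26, adjusted p = 0.00337). Gpc5, a glypican, had overlapping groups, with 42.5, 25.2 and 58.3 in control and 6.35, 12.3 and 28.3 in dKO (log2 fold change -1.46, SE 0.36, adjusted p = 0.0132), and was not called without control 1, dKO 1 or dKO 2. With a peak required in only 3 libraries, the Acoxl, Adarb2 and Gpc5 regions were not called (adjusted p = 0.0659, 0.0689 and 0.117).

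The 3 strongest members did not pass the test. A region in Gphn, the gephyrin gene, had the highest mean of all members, with 116.6, 152.5 and 193.2 in control and 159.8, 157.1 and 210.6 in dKO (chr12:78350916-78351091, log2 fold change 0.27, SE 0.15, adjusted p = 0.236). Cmss1 was next, with 70.1, 83.4 and 106.5 in control and 89.5, 94.4 and 118.2 in dKO (adjusted p = 0.164). Quantile normalization gave Cmss1 a higher call (adjusted p = 0.0285), as did a minimum mean of 20 (0.0388) and a filter on peaks at or above their list median score (0.0428). Per the authors' peak lists, these 2 stood 148 and 186 fold over their local surroundings on average, with 0.98 and 0.998 of their tags near the peak centre. The medians over all members were 13.63 fold and 0.6845, so these 2 were not typical members. The lists were not filtered for repeats here. A second Arid1b region followed, with 101.9, 84.3 and 93.1 in control and 85.1, 81.6 and 103.6 in dKO (adjusted p = 0.956), 21.4 fold over its surroundings. Groups overlapped in all 3.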

How the data were processed

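ATAC-seq peak lists of 6 libraries were analysed, 3 control and 3 dKO. Tools listed in the submitters' processing notes are Picard, Trim Galore 0.6.4, HOMER 4.11 and SAMtools 1.10, with build mm10. The aligner, read filters, Tn5 shift and peak settings were not given in the sources used here. Peaks were called per library by the authors. Per the file headers, each deposited list gives a normalized tag count (a signal scaled to a depth that is not stated), a fraction of tags near the peak centre, a peak score, a fold over local surroundings with its p-value, and a clonal fold (both ratios). Depth was therefore unknown and no count model or interval was used.

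Autosomal and X-linked peaks that shared at least 1 bp were merged, and a region's value in a library was its highest normalized tag count there. Regions with a peak in all 6 libraries were tested with limma 3.58.1 in R 4.3.3 on log2(value + 1), each library centred on its median, with a mean-variance trend, group as the only term and 2-sided p-values adjusted by Benjamini-Hochberg over 51749 regions. The fit was tested on simulated data. Fold changes understate the change of weak regions.

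Members, gene lists and the rule for named genes were chosen with earlier results of these data known. The rule named the 6 regions of smallest p in each direction with non-overlapping groups (1 per gene), the 6 genes with most regions, the 3 genes with the highest called share in each direction among those with 5 or more regions, the largest called change in each gene group and direction, and the 3 strongest regions and 3 largest changes. Of a gene named as a whole, the region of smallest p is given. Tmcc3, Creb5, Sgms1, Upp2, Mgmt, Thrb, Nr3c2 and Esrrg, the genes named for length or density, and Shank2 were chosen after their values were seen. Gene groups were matched by symbol and hold misfits, such as Ldlrad4 among small GTPase regulators. A gene span was taken from RefSeq, strand where the start windows gave one. The planned sequence analysis of all regions was not run, as no genome was used.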

Additional observations from a re-analysis of the deposited data

How the results depend on the processing

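Counts of called regions depended on the libraries and the scaling. Leaving out 1 library at a time gave 199 to 776 higher and 151 to 759 lower members, and 1257 to 5174 higher and 1402 to 8123 lower over all regions. The lowest counts came without dKO 2 (199 and 151) and without dKO 1 (250 and 217), when all regions gave 1257 and 1402, and 1633 and 2061. Without centring, 398 members and 2562 of all regions were higher, and 531 and 4655 lower. With a mean of at least 20, only 1516 members were tested. Of these, 222 (14.6%) were higher and 156 (10.3%) lower, against 11.4% and 11.1% in the main fit. Over all 20566 regions tested, 1964 (9.55%) were higher and 1955 (9.51%) lower. With peaks at or above the median score of their list, 282 (13.9%) of 2024 members were higher and 175 (8.65%) lower. Lower calls were then 38.3% of the members' calls. Over all 25405 regions tested, 2488 (9.79%) were higher and 2232 (8.79%) lower. With a peak in at least 3 libraries and missing values set to the library's lowest, 8928 members were tested. Of these limma called 217 (2.43%) higher and 151 (1.69%) lower. Over all 79584 regions tested it called 1591 (2.00%) and 1531 (1.92%). Genes of 400 kb or longer held 246 higher (10.6%) and 283 lower (12.2%) of 2326 regions. Within the wider-peak libraries, with dKO 3 alone against control 2 and control 3, the median log2 fold change of members was -0.02. Within the narrow-peak libraries, with control 1 alone against dKO 1 and dKO 2, it was 0.04. Both comparisons were chosen after seeing the data, and 1 library in a group says nothing about stability. The filters on mean, score and gene length and the left-out libraries use fewer regions or libraries, while a peak in at least 3 libraries tests more regions. The cause of the other changes was not tested. Quantile normalization, pseudocounts of 0.1 and 5, merging at 50 bp, summed peaks, peak width as a term, genes of 150 kb or longer and a distance of 50 kb kept both member counts within 1.5 times.

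Equal numbers do not pair the libraries by the labels, and deviations of same-numbered libraries correlated by 0.146, -0.03 and 0.234. With a replicate block 791 members were higher and 780 lower, and 5417 and 7384 of all regions.

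Of the 41 named regions, 26 kept their direction and side of the threshold in each of 17 alternatives that could give them a value. Only 9 of the 41 had a value with the score filter and 18 with a mean of at least 20. The leading regions of Msi2, Zfhx3, Grk5, Dlg2 and Rarb had none with the score filter. Calls were lost in 21 cases, 13 of them with a peak in at least 3 libraries (Lama3, Pde10a, Arid1b, Acoxl, Adarb2, Abcc4, Foxp1, Lpp, Rptor, Chd9, Gpc5, Gfra1 and Prkce). The Gfra1 and Prkce leading regions missed the threshold without dKO 2 (adjusted p = 0.0503 and 0.0514), as limma and Benjamini-Hochberg gave them. The strong Arid1b region, which was not called, changed sign to -0.0503 without centring, -0.13 with a peak in at least 3 libraries and -0.0145 with peak width as a term, and ranged from -0.0565 (without control 2) to 0.083 when 1 library was left out, with values below 0 also without dKO 2 and without dKO 3. Cmss1 was called higher with quantile normalization (0.45), a mean of at least 20 (0.43) and peaks at or above the median score (0.41). Quantile normalization also brought lower calls to 47.3% of members' calls and 50.6% of all, from 49.3% and 58.6%. The depth of the libraries is not stated, so what it limits could not be computed, and a site without a peak is not shown to be closed.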
